A study of Homo sapiens with 8 samples.

Results

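Calu-6 is a human lung carcinoma line, recorded here as non-small cell lung cancer with a wild-type genotype, and the series holds 8 poly(A) RNA libraries from it. They fall into 4 groups of 2: cells given 1 µM KI696 for 24 h, cells given the DMSO vehicle for 24 h, cells given 1 µM KI696 for 48 h, and cells given DMSO for 48 h. KI696 is a small molecule that keeps KEAP1 from binding the transcription factor NRF2, and all groups share the same line, medium and plate format. The 8 genes described here were chosen by name as the enzymes that remove superoxide and peroxides: the glutathione peroxidases GPX1, GPX2, GPX3, GPX4 and GPX8, catalase (CAT), and the superoxide dismutases SOD1 and SOD2. All 8 are in the deposited table of 14535 usable genes, and 7 of them, all but GPX2, reached 1 CPM (read counts scaled to the authors' effective library size) in at least 2 libraries and were tested among 13213 genes.

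Superoxide dismutases turn superoxide into hydrogen peroxide, SOD1 with copper and zinc in the cytosol and SOD2 with manganese in mitochondria. Catalase breaks hydrogen peroxide down in peroxisomes and needs no glutathione. Glutathione peroxidases reduce hydrogen peroxide or lipid hydroperoxides with electrons from glutathione, and in humans GPX1, GPX2, GPX3 and GPX4 carry selenocysteine in the active site while GPX8, a membrane protein of the endoplasmic reticulum, carries cysteine. NRF2 drives genes of glutathione and thioredoxin metabolism through antioxidant response elements in DNA, and GPX2 is a textbook target of it in epithelial cells.

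Promoter windows were taken from RefSeq (GRCh38.p14), 250 bases before to 50 after each annotated start, and matched 7 of the 8 genes, all but SOD1, with 12 windows. They were searched on both strands for the antioxidant response element core TGACNNNGC (GCNNNGTCA on the other strand) and for the CCAAT box (ATTGG on the other strand), motifs that share no fixed stretch. The first motif occurs in 13.3% of all 35116 windows of this length in the table and the second in 34.6%. The GPX2 window is shown because it is the only one of the 12 with the response element core. The CAT, GPX4 and GPX1 windows are shown because these genes were lower with KI696 at both times. Capitals mark motif matches, and each sequence runs 5′ to 3′ on the strand of its gene.
GPX2 (chr14:64942696-64942995, minus strand): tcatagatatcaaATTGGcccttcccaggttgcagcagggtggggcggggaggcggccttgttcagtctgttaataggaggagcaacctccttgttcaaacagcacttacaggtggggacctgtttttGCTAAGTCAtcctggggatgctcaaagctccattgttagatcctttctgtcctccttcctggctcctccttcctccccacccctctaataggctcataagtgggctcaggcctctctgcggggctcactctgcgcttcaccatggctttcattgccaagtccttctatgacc
CAT (chr11:34438684-34438983, plus strand): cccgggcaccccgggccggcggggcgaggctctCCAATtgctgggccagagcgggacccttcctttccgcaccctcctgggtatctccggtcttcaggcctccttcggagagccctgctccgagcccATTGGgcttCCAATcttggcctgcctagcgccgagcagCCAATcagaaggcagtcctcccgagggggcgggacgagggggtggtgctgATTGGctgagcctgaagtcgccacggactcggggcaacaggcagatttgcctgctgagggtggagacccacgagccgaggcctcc
GPX4 (chr19:1103744-1104043, plus strand, the first of 3 windows): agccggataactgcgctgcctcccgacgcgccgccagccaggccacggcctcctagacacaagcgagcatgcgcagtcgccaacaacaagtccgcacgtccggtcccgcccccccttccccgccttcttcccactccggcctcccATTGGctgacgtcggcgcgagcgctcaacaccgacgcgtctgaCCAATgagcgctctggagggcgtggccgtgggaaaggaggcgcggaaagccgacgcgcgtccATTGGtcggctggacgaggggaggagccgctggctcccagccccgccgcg
GPX1 (chr3:49358304-49358603, minus strand): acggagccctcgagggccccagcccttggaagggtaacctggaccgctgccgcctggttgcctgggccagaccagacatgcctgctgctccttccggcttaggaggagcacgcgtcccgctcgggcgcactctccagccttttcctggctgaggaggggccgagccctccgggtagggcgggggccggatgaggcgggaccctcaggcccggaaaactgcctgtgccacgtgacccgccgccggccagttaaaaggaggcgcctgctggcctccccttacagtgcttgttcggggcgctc
The GPX2 match, TGACTTAGC read on the opposite strand, begins 122 bases before the start. CAT holds 5 CCAAT matches and the GPX4 window 3, while the GPX1 window holds neither motif. The third GPX4 window holds no CCAAT match. Windows of GPX2, GPX3 and SOD2 hold it too, which makes 5 of the 7 genes, against 39.7% of all 27305 genes with windows. The box is thus not particular to the genes that were lower. A match describes letters only, and the absence of one concerns this window alone.

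The libraries held 6974235 to 14170211 reads in the table, so that 3 reads, taken as the floor for counting error alone, correspond to 0.213 to 0.428 CPM. The letters A and B name the libraries within each group by column order, which carries no replicate number. Nothing in the labels says that they came from separate cultures, so p-values measure only the spread between these libraries, which may be technical. All 6 markers of lung carcinoma epithelium were in the table, with summed levels of 905 to 1357 CPM in KI696 libraries and 1817 to 2563 CPM in DMSO libraries. Of 8 lung lineage markers, 6 were in the table and none of these exceeded 28.96 CPM. Their sum was 2.20 (A) and 3.71 (B) CPM with KI696 and 59.7 and 73.8 CPM with DMSO at 24 h, and 41.6 and 1.45 CPM with KI696 and 20.6 and 3.63 CPM with DMSO at 48 h. SFTPB and FOXJ1 had 0 reads in both KI696 libraries of 24 h, and with SFTPA2 in KI696 library B of 48 h. In DMSO library B of 48 h, SFTPA1 and SFTPB had 0 reads. Libraries A and B of 48 h therefore stand apart from each other in lineage genes, within both treatments. Of 6 erythroid markers, chosen because red cells are rich in catalase, GPX1 and SOD1, only HBA1 and HBA2 were in the table, with a sum of 2.33 to 4.94 CPM in KI696 libraries and 0.412 to 0.554 CPM in DMSO libraries. Of 6 leukocyte markers 4 were in the table, summing to 29.1 to 39.2 CPM in KI696 libraries and 42.2 to 48.1 CPM in DMSO libraries. Of 8 fibroblast and endothelial markers 6 were in the table, summing to 62.8 to 93.7 CPM in KI696 libraries and 167 to 214 CPM in DMSO libraries. The epithelial, leukocyte, fibroblast and endothelial sums were lower and the erythroid sum higher in KI696 libraries at both times. The lineage sum was lower with KI696 at 24 h and overlapped between treatments at 48 h. All 6 epithelial markers were called lower with KI696 at 24 h, but only 3 at 48 h. The others, CDH1, EPCAM and KRT19, did not pass at 48 h (limma, adjusted p = 0.63, 0.37 and 0.15). Their levels overlapped between treatments at 48 h and were higher in library A than in B within both. The epithelial sum does not show this split. The part of all these marker lists in the results on the enzymes was not tested. The known NRF2 target NQO1, a quinone reductase, was higher with KI696 by a log2 change of 1.87 (SE 0.10) at 24 h and 2.91 (SE 0.10) at 48 h (limma, adjusted p = 5.3e-08 and 1.2e-09). Of the 6 NRF2 reference genes that include it, 5 rose and 1 fell at each time (medians 1.57 and 1.62). Of all tested genes 18.1% were called higher and 30.5% lower at 24 h, and 22.4% and 26.4% at 48 h.

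With KI696 the peroxide-removing enzymes GPX1, GPX4 and CAT fell at both times while SOD1 rose at both times. GPX3 fell at 24 h but lay at scattered low levels at 48 h, GPX8 and SOD2 did not pass the test at either time, and GPX2 had at most 10 reads in any library. At 24 h, 4 of the 7 tested genes were lower and 1 was higher, where 30.5% of all tested genes were lower and 18.1% higher (48.6% called in all). At 48 h, 3 were lower and 1 was higher, where 26.4% of all tested genes were lower and 22.4% higher (48.8% called in all). With background shares of this size the counts by themselves are not a result about these genes. The median log2 change of the 7 was -0.38 at 24 h and -0.32 at 48 h, against -0.12 and -0.07 over all tested genes. These medians of all genes depend on the authors' scaling: at 24 h 37.2% of called genes were higher, against 50.8% with TMM scaling, where the median of all genes was -0.02. Changes relative to the median of all genes are therefore given beside the plain ones.

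**Figure D1:**
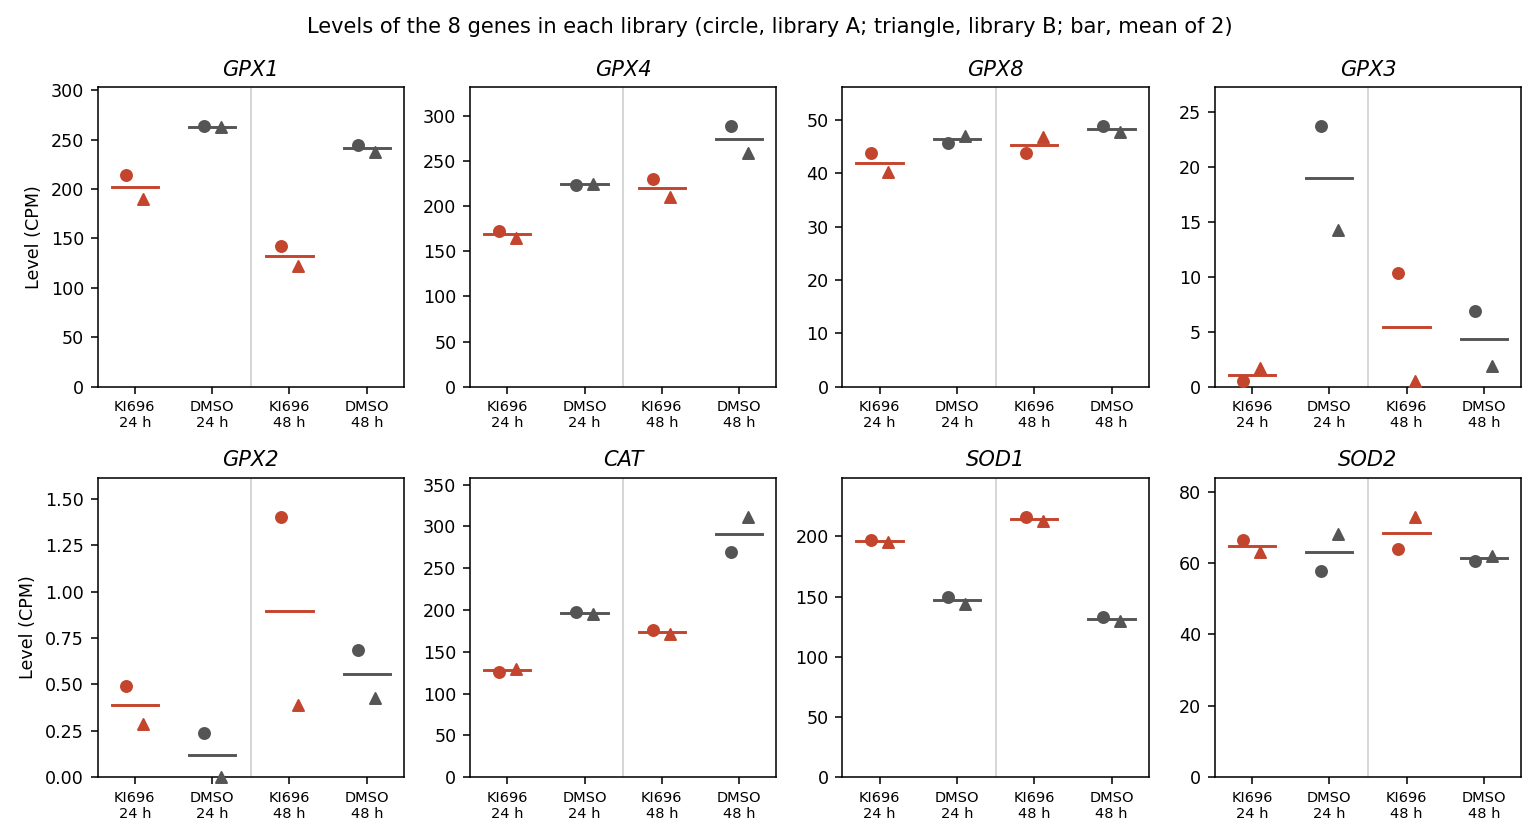
Level in CPM (linear axis from 0) of each of the 8 genes in every library, with KI696 in red and DMSO in grey, circles for library A, triangles for library B and a bar for the mean of 2 libraries. The KI696 libraries lie below the DMSO libraries of the same time for GPX1, GPX4 and CAT and above them for SOD1, while GPX3 spans 0.484 to 23.7 CPM and GPX2 stays at or under 1.40 CPM.

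GPX1, the cytosolic and mitochondrial peroxidase that reduces hydrogen peroxide (chromosome 3, 49357171 to 49358600 in hg38, minus strand, 2 exons), was lower with KI696 at both times. At 24 h it had 215 (A) and 189.9 (B) CPM in KI696 libraries, against 263 and 263 CPM in DMSO libraries. At 48 h it had 142 and 122 CPM in KI696 libraries, against 244 and 238 CPM in DMSO libraries. The groups did not overlap at either time. Both KI696 libraries lay below both DMSO libraries for 47.4% of all tested genes at 24 h and 40.5% at 48 h. The lowest GPX1 levels of the series are in the KI696 libraries of 48 h. The log2 change was -0.38 (SE 0.08, limma adjusted p = 0.0012) at 24 h and -0.87 (SE 0.08, adjusted p = 1.3e-06) at 48 h, or -0.26 and -0.79 relative to the median of all genes. In bulk libraries such as these, fewer cells of a type and less RNA per cell cannot be told apart. The change at 48 h minus that at 24 h was -0.49 (SE 0.11, 95% interval -0.72 to -0.25). This difference did not pass the test (adjusted p = 0.058), in a comparison where 0.848% of all genes passed (0.174% as lower), but it passed under 5 of 16 alternatives, with adjusted p from 0.013 without KI696 library A of 48 h to 0.31 without a variance trend. GENCODE 29 names 2 GPX1 pseudogenes, and how the counting treated reads shared with them is not given in the sources used here.

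GPX4, the peroxidase that reduces lipid hydroperoxides in membranes and guards against ferroptosis (chromosome 19, 1103926 to 1106791, plus strand), was also lower with KI696. It had 173 and 165 CPM in KI696 libraries of 24 h, against 223 and 225 CPM in the DMSO libraries of that time. At 48 h the KI696 libraries had 229.6 and 210.0 CPM, against 289 and 259 CPM in DMSO libraries. Both groups stood higher at 48 h than at 24 h, with the KI696 libraries below the DMSO libraries each time. The latter order held for 47.4% of all tested genes at 24 h and 40.5% at 48 h. The log2 change was -0.41 (SE 0.07, limma adjusted p = 2.7e-04) at 24 h and -0.32 (SE 0.07, adjusted p = 0.0016) at 48 h, or -0.29 and -0.24 relative to the median of all genes. The difference between these changes was 0.094 (95% interval -0.11 to 0.30).

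GPX8, the peroxidase of the endoplasmic reticulum (chromosome 5, 55160118 to 55167071, plus strand), varied least among the glutathione peroxidases. It had 43.8 and 40.2 CPM with KI696 and 45.7 and 47.1 CPM with DMSO at 24 h, and 43.9 and 46.9 CPM with KI696 and 48.8 and 47.8 CPM with DMSO at 48 h. The KI696 libraries lay below the DMSO libraries each time. Its log2 changes of -0.14 (95% interval -0.33 to 0.041, limma adjusted p = 0.18) and -0.090 (-0.27 to 0.093, adjusted p = 0.41) did not pass the test. Separation of 2 libraries against 2 is common here: at 24 h both KI696 libraries lay below both DMSO libraries for 47.4% of all tested genes and above them for 29.7% (77.2% in all), and at 48 h for 40.5% and 32.5% (73.0% in all). The gene overlaps CDC20B on the opposite strand, and the strand setting of the counting is not given in the sources used here.

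GPX3, the secreted plasma peroxidase (chromosome 5, 151020438 to 151028993, plus strand), had the widest range of the 8 genes on the deposited log2 scale, from -0.46 to 4.58. The KI696 libraries of 24 h held 4 and 12 reads (0.490 and 1.71 CPM), against 200 and 103 reads (23.7 and 14.3 CPM) in the DMSO libraries of 24 h. The KI696 libraries of 48 h held 74 and 5 reads (10.4 and 0.484 CPM), against 50 and 26 reads (6.86 and 1.85 CPM) in the DMSO libraries of 48 h. At 24 h the groups are far apart, while at 48 h they overlap and library A exceeds library B in each. The log2 change at 24 h was -3.96 (SE 0.92, limma adjusted p = 0.0032), and it was -3.26 without KI696 library A of 24 h (adjusted p = 0.064) and kept its value without a variance trend (adjusted p = 0.060), so the call was lost in both. At 48 h the change was -0.47 (95% interval -2.46 to 1.51, adjusted p = 0.70). It was -2.41 without KI696 library A of 48 h (adjusted p = 0.0047), and had the other sign without KI696 library B (1.46) or DMSO library A (0.41), with adjusted p of 0.067 and 0.78. The difference between the changes at the 2 times was 3.49 (SE 1.30, adjusted p = 0.20), and it was 5.43 (adjusted p = 8.8e-04) without KI696 library B of 48 h.

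The pattern of GPX3 across libraries was closest to that of epithelial and lung lineage genes. Among 10670 genes with a mean of at least 5 CPM, the highest Pearson correlations of log2 values with GPX3 over the 8 libraries were those of MUC1, a membrane mucin (r = 0.99), NKX2-1, the lung lineage transcription factor (r = 0.99), and EXPH5 (r = 0.99). NKX2-1 had 0.857 and 2.14 CPM with KI696 and 28.96 and 19.4 CPM with DMSO at 24 h, and 12.8 and 1.16 CPM with KI696 and 12.1 and 2.49 CPM with DMSO at 48 h. The summed lineage markers given above rank the 8 libraries much as GPX3 does, with the same split of library A from library B at 48 h. Their part in the GPX3 result was not tested. At 48 h the KI696 libraries had a lineage sum of 41.6 (A) and 1.45 (B) CPM. CAT had 176 and 171 CPM in them, and SOD1 216 and 213 CPM. The DMSO libraries of 48 h had a lineage sum of 20.6 (A) and 3.63 (B) CPM. In those, CAT had 269.7 and 311 CPM, and SOD1 133 and 130.1 CPM. GPX1, GPX2, GPX4 and SOD1 also had a higher level in A than in B at 48 h in both treatments. For GPX1, GPX4 and SOD1 the steps were far smaller than for GPX3. The letters follow column order, so library A of KI696 is not matched to library A of DMSO. The share of all genes with this order is not given here, so the order is not a result about these genes. With KI696 the levels were 142 and 122 CPM for GPX1 and 229.6 and 210.0 CPM for GPX4. The GPX2 order rests on 10 and 4 reads with KI696 and 5 and 6 reads with DMSO, too few to order the libraries.

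**Figure D2:**
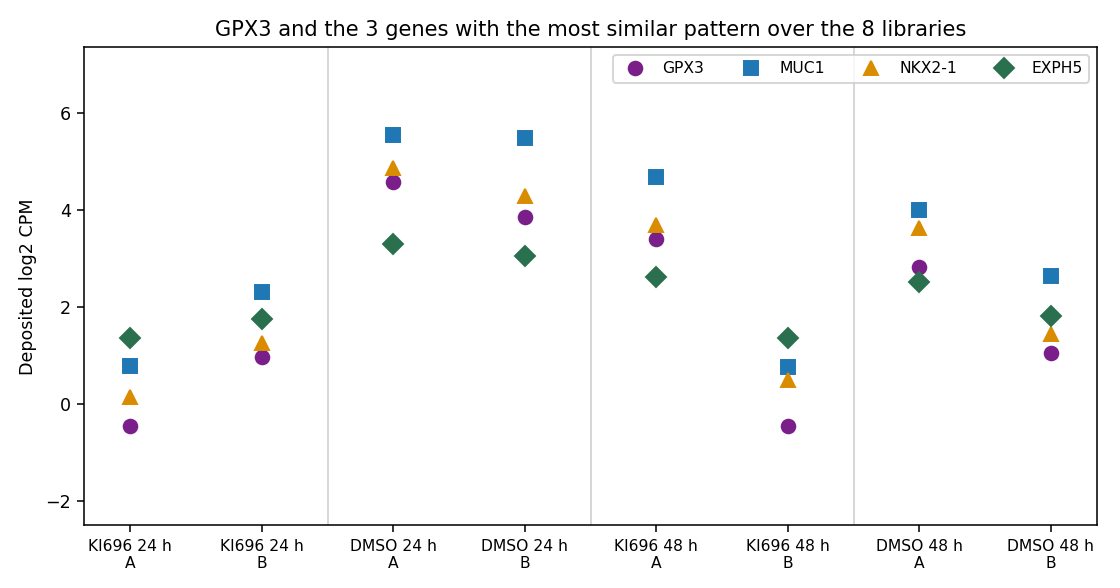
Deposited log2 CPM (vertical axis) of GPX3, MUC1, NKX2-1 and EXPH5 in each of the 8 libraries. All 4 genes are low in the KI696 libraries of 24 h and in KI696 library B of 48 h, where GPX3 has 0.484 CPM, and high in the DMSO libraries of 24 h.

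GPX2, the gastrointestinal and epithelial peroxidase whose window holds the response element core shown above (chromosome 14, 64939152 to 64942905, minus strand), was barely detected. It had 4 and 2 reads in KI696 libraries of 24 h, against 2 and 0 reads in the DMSO libraries of 24 h. It had 10 and 4 reads in KI696 libraries of 48 h, against 5 and 6 reads in the DMSO libraries of 48 h. The highest level was 1.40 CPM in KI696 library A of 48 h, and the 0 reads of DMSO library B of 24 h allow a level of up to 0.415 CPM. A change was not detectable at this depth: in a fit with no filter on low values the adjusted p was 0.22 at 24 h and 0.62 at 48 h. The gene overlaps CHURC1 and the read-through gene CHURC1-FNTB on the opposite strand, so reads cannot be assigned to a strand here.

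CAT, the gene of catalase (chromosome 11, 34438925 to 34472062, plus strand, 13 exons), was lower with KI696 and higher with time. At 24 h it had 125 and 130.01 CPM in KI696 libraries, against 197 and 195 CPM in DMSO libraries. At 48 h it had 176 and 171 CPM in KI696 libraries, against 269.7 and 311 CPM in DMSO libraries. The groups did not overlap at either time, with KI696 below DMSO as for 47.4% of all tested genes at 24 h and 40.5% at 48 h. The KI696 libraries of 48 h lay below even the DMSO libraries of 24 h. The log2 change was -0.62 (SE 0.07, limma adjusted p = 1.3e-05) at 24 h and -0.74 (SE 0.07, adjusted p = 2.2e-06) at 48 h, or -0.50 and -0.66 relative to the median of all genes. The difference between these changes was -0.12 (95% interval -0.33 to 0.093). Erythroid markers, given above, lay higher in the KI696 libraries, where CAT and GPX1 were lower and SOD1 higher.

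SOD1, the copper-zinc dismutase (chromosome 21, 31659622 to 31668931, plus strand), was the one gene of the 8 that passed as higher with KI696. At 24 h it had 197 and 196 CPM in KI696 libraries, against 149.7 and 144 CPM in DMSO libraries. At 48 h it had 216 and 213 CPM in KI696 libraries, against 133 and 130.1 CPM in DMSO libraries. The libraries of each group lie close together and the groups are well apart. Both KI696 libraries lay above both DMSO libraries for 29.7% of all tested genes at 24 h and 32.5% at 48 h. The log2 change was 0.42 (SE 0.06, limma adjusted p = 6.1e-05) at 24 h and 0.71 (SE 0.06, adjusted p = 6.1e-07) at 48 h, or 0.54 and 0.78 relative to the median of all genes. The difference between the times, 0.29 (SE 0.08, 95% interval 0.11 to 0.46), did not pass the test (adjusted p = 0.10). An antisense gene, AP000254.1, overlaps SOD1, GENCODE 29 names 3 SOD1 pseudogenes, and reads from these could not be told apart here.

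SOD2, the mitochondrial manganese dismutase that NF-kB induces (chromosome 6, 159669057 to 159745186, minus strand), showed no change that passed the test. It had 66.5 and 63.0 CPM with KI696 and 57.9 and 68.2 CPM with DMSO at 24 h, and 63.9 and 72.9 CPM with KI696 and 60.6 and 62.0 CPM with DMSO at 48 h. The groups overlap at 24 h and are just separate at 48 h. The log2 changes were 0.042 (95% interval -0.16 to 0.24, limma adjusted p = 0.73) and 0.15 (-0.046 to 0.36, adjusted p = 0.19), so that a rise as large as that of SOD1 at 48 h lies outside both intervals. The symbol belongs to 2 overlapping gene models in GENCODE 29, and WTAP lies on the opposite strand.

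**Figure D3:**
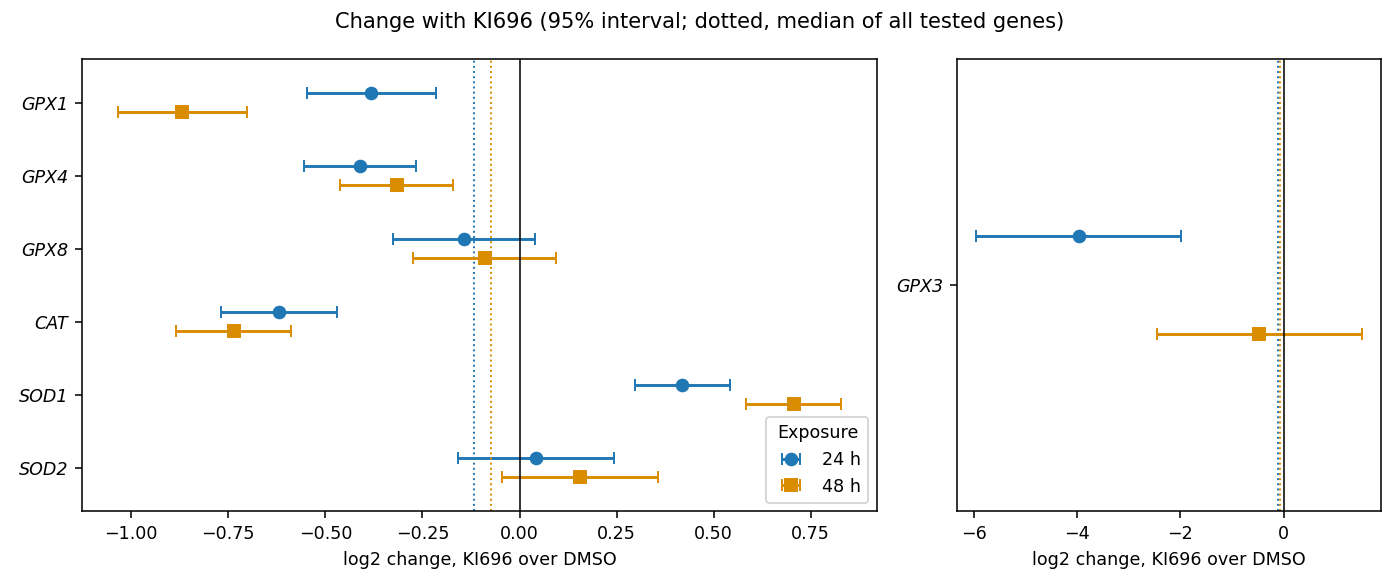
Log2 change of KI696 over DMSO at 24 h (blue) and 48 h (orange) for the 7 tested genes, with 95% intervals and a dotted line at the median of all tested genes; GPX3 has its own axis. The intervals of GPX1, GPX4 and CAT lie below 0 and those of SOD1 above 0 at both times, and those of GPX8 and SOD2 include 0.

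Between the times, CAT and GPX4 were higher at 48 h in both treatments. In DMSO, CAT was at 291 ± 29.5 CPM at 48 h and 196 ± 1.30 CPM at 24 h (mean ± SD, n = 2 libraries each), a log2 change of 0.56 (SE 0.07, limma adjusted p = 3.4e-04). GPX4 was at 274 ± 20.6 CPM at 48 h and 224 ± 1.19 CPM at 24 h, a change of 0.29 (SE 0.07, adjusted p = 0.018). These were 2 of the 7 tested genes, with none lower, where 5.29% of all genes were called higher and 4.35% lower (9.64% in all). The GPX4 call in DMSO was lost under 5 alternatives, with adjusted p of 0.054 to 0.14, namely quantile scaling, no variance trend, and the omission of DMSO library A of 24 h, B of 24 h or A of 48 h. In KI696 cells CAT was higher at 48 h by 0.44 (SE 0.07, adjusted p = 0.0020) and GPX4 by 0.38 (SE 0.07, adjusted p = 0.0040), while GPX1 was lower by -0.61 on the log2 scale (SE 0.08, adjusted p = 6.2e-04). Of all genes 8.38% were called higher and 3.61% lower in that comparison (12.0% in all). Without a variance trend none of these 5 calls held, with adjusted p of 0.053 to 0.14. Without KI696 library B of 24 h the GPX4 call in KI696 cells was also lost (adjusted p = 0.075). These comparisons share libraries with those of KI696 against DMSO. GPX1 in DMSO had a change of -0.13 (95% interval -0.29 to 0.040, adjusted p = 0.33). GPX3 in DMSO had a change of -2.27 (SE 0.92, adjusted p = 0.14), which passed under 4 alternatives with adjusted p of 0.0071 to 0.018. The libraries of the 2 times did not overlap for 55.1% of all genes in DMSO and for 56.7% in KI696 (33.2% higher at 48 h), so the separations seen here are read against those shares.

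Levels of different genes were set side by side per kilobase of the principal transcript (CPM per kb, mean ± SD of 2 libraries), since longer transcripts collect more reads. GPX4, GPX1 and SOD1 had the 3 highest means in every group, although with DMSO at 48 h SOD1 did not differ from CAT (126 ± 12.8) beyond their spread. With KI696 at 24 h SOD1 was at 203 ± 1.35, GPX4 at 184 ± 6.07 and GPX1 at 176 ± 15.2, where GPX4 and GPX1 did not differ beyond their spread. With DMSO at 24 h GPX4 was at 244 ± 1.30, GPX1 at 229 ± 0.422 and SOD1 at 152 ± 3.99. With KI696 at 48 h GPX4 was at 239 ± 15.1, SOD1 at 222 ± 2.40 and GPX1 at 115 ± 12.1, and with DMSO at 48 h GPX4 was at 298 ± 22.4, GPX1 at 209 ± 4.06 and SOD1 at 136 ± 2.01. SOD1 thus stood above GPX1 in the KI696 groups and below it in the DMSO groups, also per kilobase of merged exons. At 48 h with KI696, SOD1 was first and GPX4 second when merged exons or the coding part set the length. CAT followed at 55.5 to 126 and GPX8 at 29.8 to 34.2 CPM per kb in the 4 group means, and GPX2 had the lowest mean in all 4 at 0.120 to 0.904. GPX3 nonetheless lay below GPX2 in KI696 library A of 24 h and KI696 library B of 48 h, at 4 and 5 reads, so their order with KI696 is within the spread. The place of SOD2 rests on the length assumed: 4.30 to 4.80 CPM per kb of a 14266-base transcript, but 92.1 to 103 CPM per kb of its 666-base coding part. Summed without regard to length, the 8 genes came to 821 and 785 CPM with KI696 and 961 and 957 CPM with DMSO at 24 h, and to 884 and 837 CPM with KI696 and 1053 and 1051 CPM with DMSO at 48 h.

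The genes with patterns closest to the other members were, by the same measure over 8 libraries, CHP1, TRIB1 and GNG2 for CAT (r = 0.997, 0.996 and 0.996), INTS12, DANCR and TFB2M for SOD1 (r = 0.996 each), NPC2, PRDX5 and C9orf64 for GPX4 (r = 0.99 each) and ZNF33A, HTRA1 and EIF4A2 for GPX1 (r = 0.98 each). For GPX8 they were C1orf56, GPR124 and PPM1H (r = 0.98 each), and for SOD2, ZNF768, SNAPC1 and FAM108B1 (r = 0.92, 0.91 and 0.89). The points share their libraries and their treatment groups, so these values describe likeness only.

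Genes that work beside these enzymes moved in both directions. Counts of called genes in the lists below are read against the shares over all tested genes. These were 30.5% lower and 18.1% higher at 24 h, and 26.4% lower and 22.4% higher at 48 h. Counts near these shares are not a result about a list. SOD3, the secreted dismutase, had 2.57 and 2.42 CPM with KI696 and 7.48 and 7.06 CPM with DMSO at 24 h, and 4.21 and 3.10 CPM with KI696 and 13.4 and 10.7 CPM with DMSO at 48 h. CCS, the chaperone that loads copper into SOD1, had 13.5 and 10.3 CPM with KI696 and 24.4 and 21.7 CPM with DMSO at 24 h, and 17.5 and 14.4 CPM with KI696 and 27.4 and 23.3 CPM with DMSO at 48 h. Both fell at both times, with SOD3 at -1.45 (SE 0.23) and -1.67 (SE 0.23) and CCS at -0.96 (SE 0.16) and -0.66 (SE 0.16), and limma adjusted p of at most 0.0037. SOD1 and its chaperone thus had changes of opposite sign. The other 3 genes of this list, GPX5, GPX6 and GPX7, were absent from the deposited table under these symbols.

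Of 10 genes of glutathione synthesis and recycling, 5 rose and 2 fell at 24 h, and 7 rose and 1 fell at 48 h (list medians 0.65 and 1.21). For this list and the next 2, the shares over all tested genes were 18.1% higher and 30.5% lower at 24 h. At 48 h they were 22.4% and 26.4%. The ligase subunits GCLC and GCLM, which begin glutathione synthesis, were higher by 2.39 (SE 0.09) and 2.40 (SE 0.09) at 24 h and by 2.57 (SE 0.09) and 2.47 (SE 0.09) at 48 h. The cystine carrier SLC7A11 was higher by 1.65 (SE 0.08) and 2.07 (SE 0.08). Of 12 peroxiredoxin, thioredoxin and sulfiredoxin genes, 6 rose and 2 fell at 24 h, and 7 rose and 4 fell at 48 h (medians 0.31 and 0.42). PRDX1, a peroxiredoxin that reduces hydrogen peroxide, was higher by 0.83 (SE 0.05) and 0.97 (SE 0.05), and thioredoxin reductase TXNRD1, itself a selenoprotein, by 1.90 (SE 0.09) and 2.25 (SE 0.09). Of 8 tested lipid peroxide and ferroptosis genes, 5 rose and 3 fell at each time (medians 0.65 and 0.74). FTL and FTH1, the iron-storing ferritin light and heavy chains, were higher by 1.47 (SE 0.08) and 1.32 (SE 0.08) at 24 h and by 2.18 (SE 0.08) and 1.76 (SE 0.08) at 48 h. All of these named changes passed (limma, adjusted p of at most 2.2e-07). Other members of these lists fell at both times or did not pass. GGT1, which breaks down glutathione outside the cell, was at -1.54 (SE 0.21) and -0.86 (SE 0.21), and GSS, the glutathione synthetase, did not pass at either time. The peroxiredoxins PRDX5, at -0.50 (SE 0.07) and -0.32 (SE 0.07), and PRDX2, at -0.29 (SE 0.07) and -0.41 (SE 0.07), also fell, with limma adjusted p of at most 0.0038 for these and GGT1. The 3 ferroptosis genes that fell were ACSL4, at -0.70 (SE 0.07) and -0.89 (SE 0.07), GCH1, at -0.83 (SE 0.12) and -1.39 (SE 0.12), and LPCAT3. LPCAT3 was at -0.19 (SE 0.07) and -0.24 (SE 0.07), and limma adjusted p for these 3 was at most 0.033. They, and GGT1, GSS, PRDX5 and PRDX2, were chosen after their values were seen.

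Of 9 genes of the selenocysteine machinery, 2 rose and 3 fell at 24 h, and 4 rose and 2 fell at 48 h (medians -0.09 and 0.26, against -0.12 and -0.07 over all genes). SEPHS1 was higher by 0.29 (SE 0.06) and 0.37 (SE 0.06), and SECISBP2L, a relative of the factor that binds the selenocysteine insertion element, was lower, at -0.50 (SE 0.08) and -0.64 (SE 0.08). That factor, SECISBP2, was at -0.048 at 24 h (limma, adjusted p = 0.71) and higher by 0.35 at 48 h (adjusted p = 0.0075). SEPHS2 did not pass at either time (adjusted p = 0.40 and 0.42). SECISBP2 and SEPHS2 were chosen after their values were seen. Of 12 tested other selenoproteins, 1 rose and 7 fell at 24 h, and 1 rose and 6 fell at 48 h (medians -0.34 and -0.37). Beside both lists, 18.1% of all tested genes were called higher and 30.5% lower at 24 h, and 22.4% and 26.4% at 48 h. SEPW1, the gene of selenoprotein W, had 27.8 and 27.9 CPM with KI696 and 40.2 and 41.7 CPM with DMSO at 24 h, and 20.3 and 19.0 CPM with KI696 and 40.6 and 40.1 CPM with DMSO at 48 h. Like GPX1 it was lowest in the KI696 libraries of 48 h, with changes of -0.55 (SE 0.09) and -1.03 (SE 0.09). SELT, of selenoprotein T, changed by -0.27 (SE 0.06) and -0.69 (SE 0.06). EPT1, of selenoprotein I, which makes phosphatidylethanolamine, was the 1 member that rose, by 0.81 (SE 0.07) and 0.67 (SE 0.07). Apart from those of SECISBP2 and SEPHS2, all of these named changes passed (limma, adjusted p of at most 0.0037).

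Of 14 tested genes of peroxisome import and peroxisomal oxidases, where catalase resides, 1 rose and 6 fell at 24 h, and 2 rose and 5 fell at 48 h (medians -0.31 and 0.01). PEX5, the receptor that imports catalase into peroxisomes, had 94.7 and 87.5 CPM with KI696 and 64.4 and 64.2 CPM with DMSO at 24 h, and 88.5 and 92.9 CPM with KI696 and 64.1 and 63.4 CPM with DMSO at 48 h. It was higher by a log2 change of 0.50 (SE 0.07) and 0.51 (SE 0.07), with limma adjusted p = 9.2e-05 and 6.6e-05, so the changes of catalase and its import receptor had opposite signs. Of 5 tested oxidases that make superoxide or peroxide, 0 rose and 2 fell at 24 h, and 1 rose and 0 fell at 48 h. Beside this list and the peroxisomal one, 18.1% of all tested genes were called higher and 30.5% lower at 24 h. At 48 h the shares were 22.4% and 26.4%. CYBA, a subunit of NADPH oxidases, changed by -0.27 (SE 0.06, adjusted p = 0.0017) at 24 h and had a change of -0.014 (SE 0.06, adjusted p = 0.86) at 48 h.

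**Figure D4:**
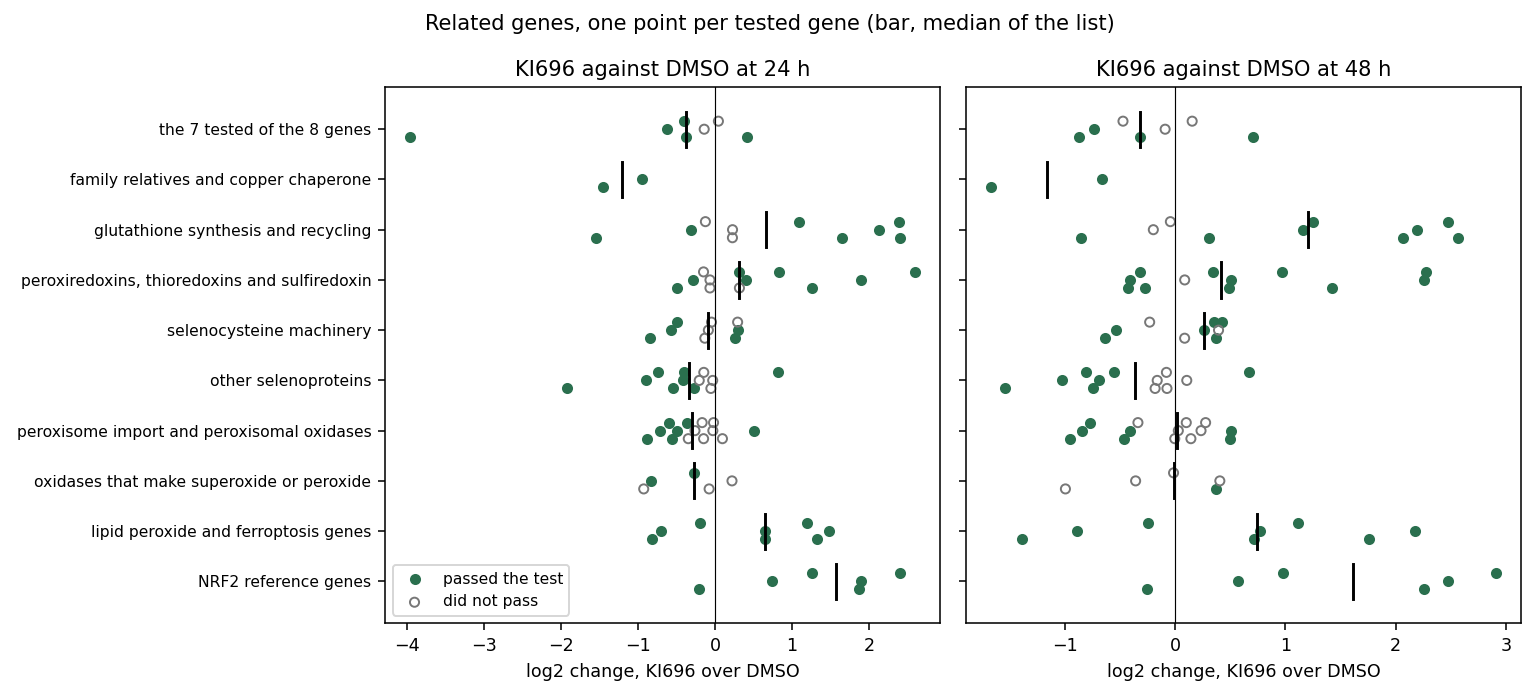
Log2 change of KI696 over DMSO at 24 h and 48 h, 1 point per tested gene of each list of related genes, filled where the gene passed the test, with a bar at the list's median. The 7 tested genes have medians of -0.38 and -0.32, and the glutathione list of 0.65 and 1.21.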

How the data were processed

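Poly(A) RNA of Calu-6 cells was sequenced in 75 bp single-end runs, per the labels' protocols, with hg38, R 4.0.3 and edgeR (no version) named in the submitters' processing notes. The sources used here do not give the aligner, counting tool, annotation, strand setting or gene filter. The authors deposited log2 values, read here as log2 CPM with a small prior count, since all 8 columns share a floor of -2.05 and step in whole reads (largest distance to a whole number 2.4e-09 reads). CPM here is the antilog minus the floor. Of 14556 rows, 21 with symbols turned into dates were left out.

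The deposited log2 values were fitted in limma 3.58.1 (R 4.3.3) with 4 group means and a variance trend. Tests were two-sided, and p-values were adjusted by Benjamini-Hochberg, at 0.05, over the 13213 genes that reached 1 CPM in 2 or more libraries (4 residual and 13.1 total degrees of freedom). Had the table been linear, log2 of the value plus 1 would have been used. The pipeline was tested on simulated data. Named are the 8 genes, up to 3 genes per related list by smallest p, and the 3 nearest genes by correlation; some are left out of the text. Coordinates and lengths come from GENCODE 29. The members and lists were chosen with earlier results of these data known. Alternatives were 2 filters, log2 of CPM plus 1, 3 scalings, voom on recovered reads, no variance trend, fits of the compared groups only, and each library left out. Floors on reads cover counting error only. The intervals of the changes come from the limma standard errors and measure the spread between these libraries.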

Additional observations from a re-analysis of the deposited data

How the results depend on the processing

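No paired analysis was possible because the columns carry no replicate numbers. Over 588 recomputed values of the 7 tested genes in 5 comparisons, 556 kept their direction and their side of the threshold, 12 lost a call, 12 gained one and 8 changed sign. The KI696 calls of GPX1, GPX4, CAT and SOD1 held at both times under every alternative run, with log2 changes of -0.47 to -0.28, -0.45 to -0.31, -0.66 to -0.52 and 0.38 to 0.52 at 24 h and -0.98 to -0.76, -0.39 to -0.24, -0.84 to -0.63 and 0.68 to 0.76 at 48 h. The sign changes came from leaving out 1 library. GPX3 at 48 h ranged from -2.41 to 1.46 over these fits, positive without KI696 library B or DMSO library A (0.41) of that time, and over time in KI696 from -0.72 without library A of 48 h to 3.15 without B. SOD2 ranged from -0.076 to 0.16 at 24 h, from -0.15 to 0.082 in DMSO over time, from -0.018 to 0.17 in KI696 over time and from -0.0049 to 0.23 for the difference of effects. GPX8 ranged from -0.0099 to 0.11 for that difference. The cause was not tested.

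Among all genes, leaving out 1 library gave 4666 to 6635 called genes at 24 h and 5291 to 6166 at 48 h, 1 to 530 for the difference of effects, 316 to 1646 in DMSO over time and 258 to 1945 in KI696 over time, against 6422, 6445, 112, 1274 and 1584 with all libraries. A lone library is then assumed to vary like the others. Without a filter 5 genes were called for the difference of effects. Without a variance trend limma called 0 (1681 at an unadjusted p under 0.05), with 153 in DMSO and 152 in KI696 over time. The share of called genes that were higher was 79.5% for the difference of effects (65.1% with TMM) and 69.9% in KI696 over time (58.2% with TMM). Depth limits GPX2 and GPX3.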
